A study of Mus musculus with 2 samples.

Results

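A set of 8 inflammatory genes was followed through the leukocytes of the mouse thymus: Il1b, Il1rn, Il1f9, Tnf, Nlrp3, Clec4d, Clec4e and Acod1. They were chosen by symbol, and each of the 8 matched 1 of the 32285 gene rows of the count matrix. The cells came from adult C57BL/6 mice of no stated mutation or treatment. The thymus had been dissociated enzymatically, cells carrying surface CD64 (the high-affinity IgG receptor encoded by Fcgr1) had been sorted, and RNA had been counted with a droplet-based 3′ method. Of the 2 libraries, from 2021 and 2024, only the 2021 library has gene names here, so every gene value below comes from 1 library and no test between groups was possible. The number of animals behind the library is not given in the sources used here.

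Interleukin-1 beta is made as an inactive precursor and is released after an inflammasome, such as the one built on NLRP3, activates caspase-1. The gene itself is switched on by receptors that sense microbes or damage and signal through NF-kB, and the receptor antagonist encoded by Il1rn blocks the same receptor that the cytokine uses. Neutrophils, monocytes, macrophages and dendritic cells can all express parts of this programme. In the thymus these cells lie among developing T cells, and macrophages there are known for clearing thymocytes that die during selection.

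In the 2021 library there were 3214 barcodes with 8534578 transcripts, counted by their unique molecular identifiers (UMIs). After filtering, 3185 cells were kept, with a median of 2169 UMIs. Clustering without the 8 genes and naming by marker genes gave 481 neutrophil-like cells (15.1% of kept cells), 505 monocyte-like (15.9%), 345 macrophage-like (10.8%) and 815 conventional dendritic cell-like (25.6%). The median depth was 1716 UMIs in neutrophil-like, 2009 in monocyte-like, 2465 in macrophage-like and 3307 in dendritic cell-like cells. The labels call the sorted cells macrophages, and the other kept cells were lymphocyte-like (384 T lineage, 298 NK or innate lymphoid and 211 B lineage), 11 basophil-like cells and 135 dividing cells that stayed unnamed. All 15 neutrophil markers and all 15 macrophage markers were highest, among the 4 myeloid classes, in the class they name. So were 11 of 15 monocyte markers (not Ly6c2, Chil3, Fn1 and Pglyrp1) and 14 of 15 dendritic cell markers (not Itgax). The same markers had named the clusters, so these counts are no separate check of the names. Fcgr1, the gene of the sorted protein, stood at 145 CPM in macrophage-like cells, 72.3 in monocyte-like, 7.09 in dendritic cell-like and 4.40 in neutrophil-like cells. CPM here is a gene's UMI count divided by all UMIs of the summed cells and multiplied by 1e6.

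Each gene had its own distribution over the 4 classes. Il1b was found in all of them, Il1f9 was nearly confined to neutrophil-like cells, Tnf was highest in macrophage-like cells, and Clec4d, Clec4e and Acod1 were highest in neutrophil-like cells. Of all 155 Il1f9 UMIs in kept cells, 151 (97.4%) lay in neutrophil-like cells. The same class held 81.8% of 44 Acod1 UMIs, 63.3% of 158 Clec4d UMIs, 56.8% of 514 Clec4e UMIs and 40.7% of 533 Il1rn UMIs, but only 24.8% of 4355 Il1b UMIs, 23.9% of 213 Nlrp3 UMIs and 18.2% of 214 Tnf UMIs.

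**Figure D1:**
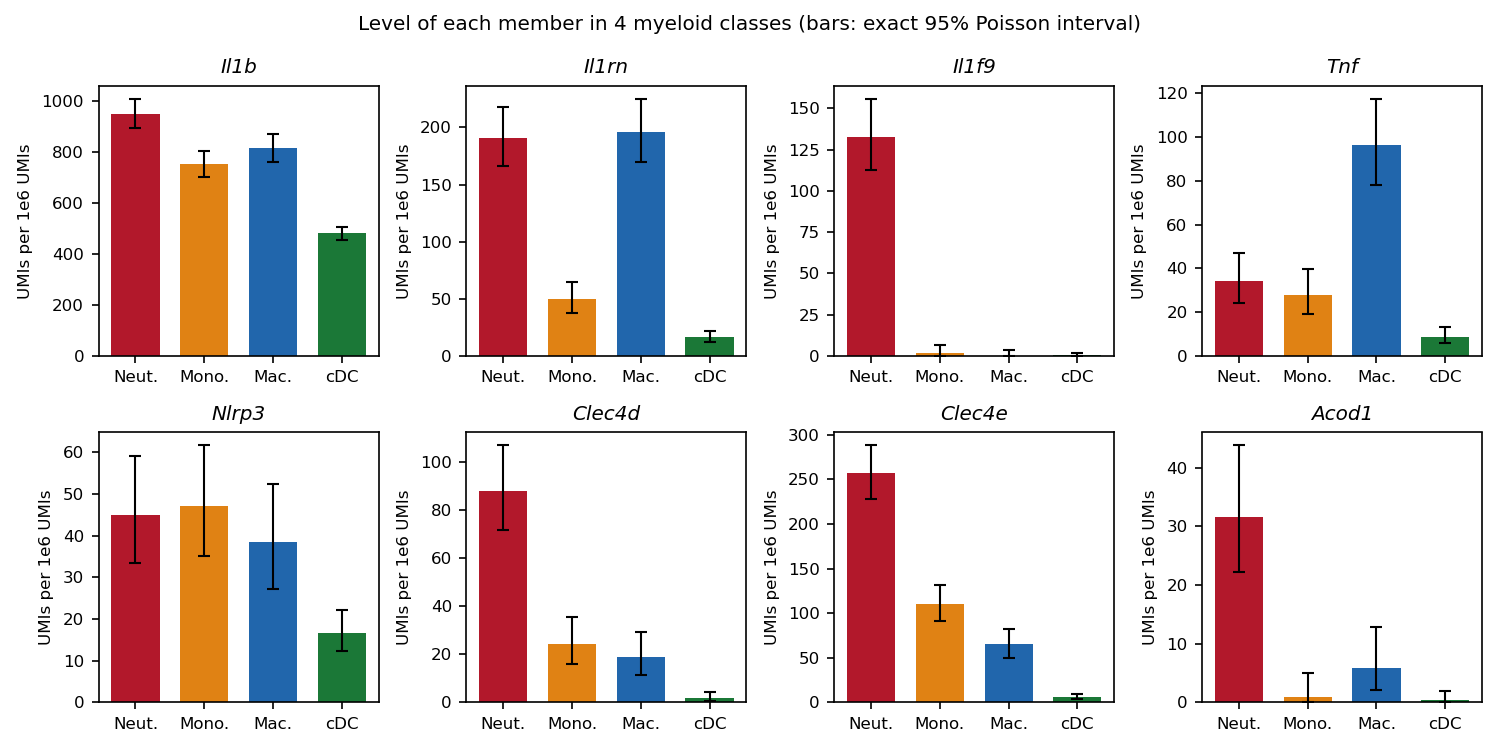
Level of each gene (vertical axis, UMIs per 1e6 UMIs, a separate linear scale for each gene) in neutrophil-like (Neut.), monocyte-like (Mono.), macrophage-like (Mac.) and conventional dendritic cell-like (cDC) cells of the 2021 library. Bars are summed cells and lines are exact 95% Poisson intervals. Il1f9 stands at 133 CPM in neutrophil-like cells and at 0 to 1.81 in the other classes, whereas Tnf peaks at 96.5 CPM in macrophage-like cells.

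A gene was counted as higher in 1 class when its level was at least 2-fold that of the other and the pair held at least 15 UMIs. Against monocyte-like cells, 5 of the 8 genes were higher in neutrophil-like cells (Il1rn, Il1f9, Clec4d, Clec4e and Acod1), where 11.4% of 7447 genes were, and none was lower. Against macrophage-like cells 4 of 8 were higher (Il1f9, Clec4d, Clec4e and Acod1; all genes, 10.2%) and Tnf was lower (all genes, 49.1%). Against dendritic cell-like cells 7 of 8 were higher, all but Il1b (all genes, 13.8%). The median log2 ratio of the 8 genes was 1.53, 1.10 and 4.47 in these pairs, beside -0.76, -0.97 and -0.78 over all genes.

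Among the other 3 classes, macrophage-like cells were higher than monocyte-like cells for Il1rn (3.94-fold) and Tnf (3.44-fold), 2 of the 6 genes with enough UMIs, where 14.9% of all genes were, and for none were monocyte-like cells higher (all genes, 4.48%). Dendritic cell-like cells were the low class. Monocyte-like and macrophage-like cells each exceeded them for 5 of 6 genes, all but Il1b (all genes, 11.6% and 17.7%), and none of the genes was higher in dendritic cell-like cells (all genes, 12.2% and 6.03%).

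S100a8 and S100a9, the calcium-binding proteins that fill neutrophil cytosol, made up 37.4% of neutrophil-like UMIs and at most 0.303% in the other 3 classes, so every other gene of that class is read against a reduced share. With those 2 genes left out of the totals, neutrophil ratios rose by 0.67 on the log2 scale. Then 6, 4 and 8 of the 8 genes were higher than in monocyte-like, macrophage-like and dendritic cell-like cells, where 20.1%, 17.6% and 23.6% of all genes were, and the lower calls over all genes fell to 24.5%, 30.5% and 27.5% (from 42.5%, 49.1% and 44.7%). Tnf was then no longer at least 2-fold lower than in macrophage-like cells, and Il1rn against macrophage-like cells and Nlrp3 against monocyte-like cells, close to even before, turned to 0.63 and 0.61 on the log2 scale in favour of neutrophil-like cells. Median-of-ratios scaling gave 7, 6 and 8 genes, beside 25.2%, 22.6% and 25.5% of all genes higher and 19.7%, 23.6% and 25.4% lower.

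Among the cytokine genes, Il1b (chromosome 2, 129364570 to 129371139, minus strand, GRCm38) gave 1079 UMIs in neutrophil-like cells, 830 in monocyte-like, 827 in macrophage-like and 1357 in dendritic cell-like cells. The levels were 949 CPM (95% interval 893 to 1007), 750 (700 to 803), 814 (759 to 871) and 481 (456 to 507). These intervals are exact Poisson intervals and cover counting error only. The neutrophil-like level was 1.17-fold the macrophage-like level (1.06 to 1.28), the macrophage-like and monocyte-like levels did not differ beyond counting error (1.09-fold, 0.984 to 1.20), and the monocyte-like level was 1.56-fold that of dendritic cell-like cells (1.43 to 1.70). The first place of neutrophil-like cells rested on shallow cells. With a stricter cell filter (1000 UMIs, 500 genes, 5% mitochondrial UMIs) the Il1b level was 199 CPM in neutrophil-like cells, 631 in monocyte-like and 911 in macrophage-like cells. That filter removed 196 of the 481 neutrophil-like cells, which held 859 of their 1079 Il1b UMIs. Of the 196, 119 had under 1000 UMIs, and the others failed the limits on genes or mitochondrial UMIs. The cells left were also clustered and named anew. By this, 56 monocyte-like cells, with 196 of the 830 Il1b UMIs, were classed as macrophage-like. When each cell was classed by its own marker UMIs, the neutrophil level was 660 CPM and lay under the monocyte and macrophage levels by 0.17 and 0.23 on the log2 scale.

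The 150 bases before the RefSeq start of Il1b (chr2:129371140-129371289, minus strand, GRCm38.p6) are shown because this gene carries most UMIs of the 8. Capitals mark a match to the C/EBP motif TTNNGNAA, searched on both strands. C/EBP factors are transcription factors of the myeloid lineage.

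Il1b: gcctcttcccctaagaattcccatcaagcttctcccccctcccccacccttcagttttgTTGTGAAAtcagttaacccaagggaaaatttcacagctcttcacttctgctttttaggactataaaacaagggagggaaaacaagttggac

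The C/EBP letters were found in the 250 bases before a listed start of 6 of the 8 genes (Il1b, Il1rn, Tnf, Nlrp3, Clec4d and Clec4e), and 36.8% of 32851 RefSeq promoters hold them. The PU.1 core GAGGAA was found in 6 of 8 (Il1f9, Tnf, Nlrp3, Clec4d, Clec4e and Acod1; all promoters, 23.3%). AP-1 letters (TGANTCA) were found for Il1rn only (all promoters, 6.75%) and the NF-kB consensus for Nlrp3 only (1641 promoters in all). Il1rn and Nlrp3 have more than 1 listed start and so were searched over more bases. A match of letters is a description of the sequence and not a binding site.

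Il1rn, which encodes the interleukin-1 receptor antagonist (chromosome 2, 24336853 to 24351494, plus strand), stood at 196 CPM in macrophage-like cells (170 to 225, 199 UMIs) and 191 in neutrophil-like cells (166 to 218, 217 UMIs). It fell to 49.7 CPM in monocyte-like cells (55 UMIs) and 16.7 in dendritic cell-like cells (47 UMIs). The first pair did not differ beyond counting error (1.03-fold, 0.842 to 1.25), while neutrophil-like cells were 3.84-fold above monocyte-like cells (2.84 to 5.26) and these were 2.98-fold above dendritic cell-like cells (1.99 to 4.50). Under the stricter filter the neutrophil-like level lay below the macrophage-like level by 1.07 on the log2 scale.

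Il1f9 encodes interleukin-36 gamma, a relative of interleukin-1 that acts through its own receptor (chromosome 2, 24186476 to 24193568, plus strand). Its 151 UMIs in neutrophil-like cells gave 133 CPM (112 to 156). Monocyte-like cells held 2 UMIs (1.81 CPM), dendritic cell-like cells 1 UMI (0.354 CPM) and macrophage-like cells none (interval up to 3.63 CPM). The neutrophil-like level was 73.5-fold that of monocyte-like cells (20.0 to 612) and at least 45.0-fold higher than in macrophage-like cells.

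Tnf, the gene of tumour necrosis factor (chromosome 17, 35199381 to 35202007, minus strand), ran the other way. It stood at 96.5 CPM in macrophage-like cells (78.3 to 118, 98 UMIs), 34.3 in neutrophil-like (24.4 to 46.9, 39 UMIs), 28.0 in monocyte-like (19.0 to 39.8, 31 UMIs) and 8.86 in dendritic cell-like cells (5.73 to 13.1, 25 UMIs). Macrophage-like cells were 2.81-fold above neutrophil-like cells (1.92 to 4.19), and the neutrophil-like and monocyte-like levels did not differ beyond counting error (1.22-fold, 0.744 to 2.03). The Tnf UMIs of macrophage-like cells sat in 42 of 345 cells, and 1 cell held 11.2% of them.

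Nlrp3, the inflammasome sensor (chromosome 11, 59541568 to 59566956, plus strand), was the most even of the genes outside dendritic cells. Its level was 47.0 CPM in monocyte-like cells (35.1 to 61.6, 52 UMIs), 44.8 in neutrophil-like (33.4 to 59.0, 51 UMIs) and 38.4 in macrophage-like cells (27.3 to 52.5, 39 UMIs), and neither step in this order exceeded counting error. Dendritic cell-like cells, at 16.7 CPM (47 UMIs), lay below macrophage-like cells, which were 2.31-fold higher (1.47 to 3.60). Without the shallow neutrophil-like cells the order changed. Under the stricter filter the neutrophil-like level lay below the monocyte-like level by 1.58 and below the macrophage-like level by 1.42 on the log2 scale.

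Clec4d and Clec4e encode C-type lectin receptors (MCL and Mincle) that pair with the Fc receptor gamma chain and signal through SYK and CARD9 after binding microbial glycolipids. The 2 genes are neighbours on chromosome 6 (Clec4d, 123262111 to 123275265, plus strand; Clec4e, 123281789 to 123289870, minus strand), with their 3′ ends facing each other across 6523 bases. Clec4e stood at 257 CPM in neutrophil-like cells (228 to 288, 292 UMIs), 110 in monocyte-like (91.5 to 132, 122 UMIs), 65.0 in macrophage-like (50.2 to 82.6, 66 UMIs) and 6.02 in dendritic cell-like cells (3.51 to 9.64, 17 UMIs). Each step of this order exceeded counting error, with ratios of 2.33 (1.88 to 2.90), 1.70 (1.25 to 2.33) and 10.8 (6.25 to 19.6). Clec4d stood at 87.9 CPM in neutrophil-like cells (71.5 to 107, 100 UMIs), 24.4 in monocyte-like (27 UMIs), 18.7 in macrophage-like (19 UMIs) and 1.77 in dendritic cell-like cells (5 UMIs). Monocyte-like and macrophage-like levels of Clec4d did not differ beyond counting error (1.30-fold, 0.699 to 2.48). The stricter filter took Clec4e in neutrophil-like over monocyte-like cells to 0.24 on the log2 scale, from 1.22, and left Clec4d at 1.08, from 1.85.

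The promoters of this neighbouring pair (Clec4d, chr6:123261957-123262106, plus strand; Clec4e, chr6:123289872-123290021, minus strand; GRCm38.p6) are shown because both genes had the same order over the 4 classes. Capitals mark C/EBP matches as above, of which Clec4d has 3 in these 150 bases and Clec4e has 1.

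Clec4d: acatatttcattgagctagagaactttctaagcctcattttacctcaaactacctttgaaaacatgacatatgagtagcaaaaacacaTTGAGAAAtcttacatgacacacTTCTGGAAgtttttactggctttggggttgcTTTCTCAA

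Clec4e: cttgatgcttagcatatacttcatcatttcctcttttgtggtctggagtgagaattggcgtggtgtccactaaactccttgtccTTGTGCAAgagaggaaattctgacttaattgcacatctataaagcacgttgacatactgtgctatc

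Acod1 encodes the mitochondrial enzyme that makes itaconate from a citric acid cycle intermediate (chromosome 14, 103046977 to 103056573, plus strand). It was sparse, with 36 UMIs in neutrophil-like cells (31.7 CPM, 22.2 to 43.8), 6 in macrophage-like cells (5.91 CPM), 1 in monocyte-like cells (0.904 CPM) and 1 in dendritic cell-like cells (0.354 CPM). Neutrophil-like cells were 5.36-fold above macrophage-like cells (2.24 to 15.6). The 36 UMIs came from 19 cells, and 1 cell held 22.2% of them. Under the stricter filter the ratio to macrophage-like cells was 0.64 on the log2 scale and no longer reached 2-fold.

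Lymphocyte-like cells, which are not known for Il1b, give a level to read the others against. Il1b stood at 113 CPM in T lineage-like, 61.6 in B lineage-like and 28.2 in NK or innate lymphoid-like cells. In T lineage-like cells 47 of 89 Il1b UMIs came from 4 cells, in which neutrophil markers stood at 10802 CPM, against 2265 in the other 380. The T lineage-like level was uneven, at 274 CPM (73 UMIs) in the cluster of 247 shallower cells and 30.7 (16 UMIs) in the other, and it reached 474 CPM (69 UMIs) in a finer cluster of 154 cells, above the 324 CPM of the lowest dendritic cell-like cluster. Whether these UMIs came from free RNA, mixed droplets or the cells themselves was not tested. No Il1f9 or Acod1 UMI was seen in T lineage-like or NK and innate lymphoid-like cells. The 135 dividing unnamed cells held 136 Il1b UMIs and none of Il1f9 or Acod1. Elane, Prtn3, Prg2 and Mpo, granule genes of early granulocyte precursors, led this cluster, but in the finer clustering they led only 13 of its cells, with 4 Il1b UMIs in 1 cell, while 123 cells led by cell division genes, with the monocyte markers F13a1 and Vcan raised, held 126.

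**Figure D2:**
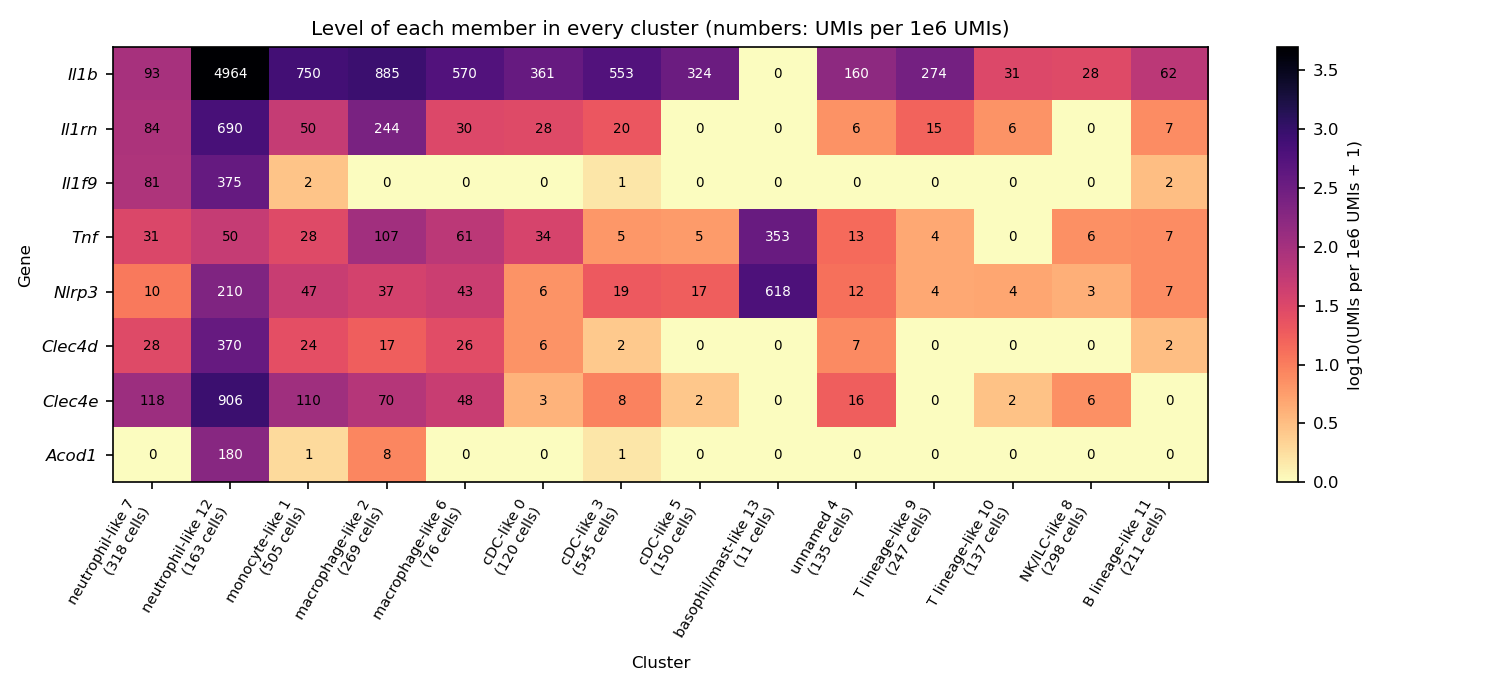
Level of each gene (rows) in each of the 14 clusters of kept cells (columns, named by class and cluster number, with the number of cells). Printed numbers are UMIs per 1e6 UMIs and the colour is log10 of that value plus 1. Il1b has values of 324 CPM or more in every monocyte-like, macrophage-like and dendritic cell-like (cDC) cluster, and neutrophil-like cluster 12 is the highest column for 6 of the 8 genes. The 2 exceptions, Tnf and Nlrp3, are highest in the cluster of 11 basophil-like cells, where they rest on 4 and 7 UMIs.

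The share of cells with at least 1 UMI was compared after thinning each cell to 1000 UMIs. Il1b was detected in 15.2% of 362 neutrophil-like cells (exact binomial interval 11.7 to 19.3%), 33.2% of 464 monocyte-like (28.9 to 37.7%), 35.5% of 307 macrophage-like (30.2 to 41.1%) and 23.3% of 799 dendritic cell-like cells (20.4 to 26.4%), with 5.97% in T lineage-like and 1.06% in B lineage-like cells. Thinning left out 119 neutrophil-like, 41 monocyte-like, 38 macrophage-like and 16 dendritic cell-like cells. Unthinned, the shares were 31.0%, 49.1%, 51.6% and 37.4%. With thinning to 500 UMIs, which keeps every cell, they were 24.9%, 27.7%, 23.2% and 16.8%. The order of the classes by share therefore depended on depth, and it went against the order by CPM at 1000 UMIs, so no order is read from it.

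The order of genes by detection in neutrophil-like cells also depended on depth. At 1000 UMIs, which leaves out the 119 shallow cells, Clec4e was detected in 71 of 362 cells, Il1b in 55 and Il1rn in 55. At 500 UMIs, which keeps all 481 cells, Il1b was detected in 120, Clec4e in 80 and Il1rn in 55. Unthinned, Clec4e was detected in 164, Il1b in 149 and Il1rn in 124. No order of the genes is read from these shares. After thinning to 1000 UMIs, Clec4e was seen in 19.6% of neutrophil-like, 10.1% of monocyte-like and 3.91% of macrophage-like cells, and Il1rn in 15.2%, 4.96% and 14.3%. Il1f9 was seen in 14.9% of neutrophil-like cells and in 0 of 464 monocyte-like, 0 of 307 macrophage-like and 0 of 799 dendritic cell-like cells.

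Few neutrophil-like cells held most of the Il1b, and they were small in RNA. The 119 neutrophil-like cells under 1000 UMIs held 713 of 1079 Il1b UMIs (66.1%), at 7893 CPM (7324 to 8494) and 5.99 UMIs per cell. The 362 deeper cells held 366, at 350 CPM (315 to 387) and 1.01 UMIs per cell. The highest count in any of the 4 classes, 35 Il1b UMIs, was in a neutrophil-like cell. The same shallow cells held 72.2% of Acod1 and 56.9% of Nlrp3 UMIs of the class, but 14.6% of Il1f9 UMIs. Monocyte-like cells also had a higher Il1b level in their 41 cells under 1000 UMIs (1868 CPM, 63 UMIs) than in deeper cells (715 CPM, 767 UMIs), with similar UMIs per cell (1.54 and 1.65). In macrophage-like cells the 38 cells under 1000 UMIs held 1 of 827 Il1b UMIs. Depth moves with the level in these 3 classes, and its part in the result was not tested.

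**Figure D3:**
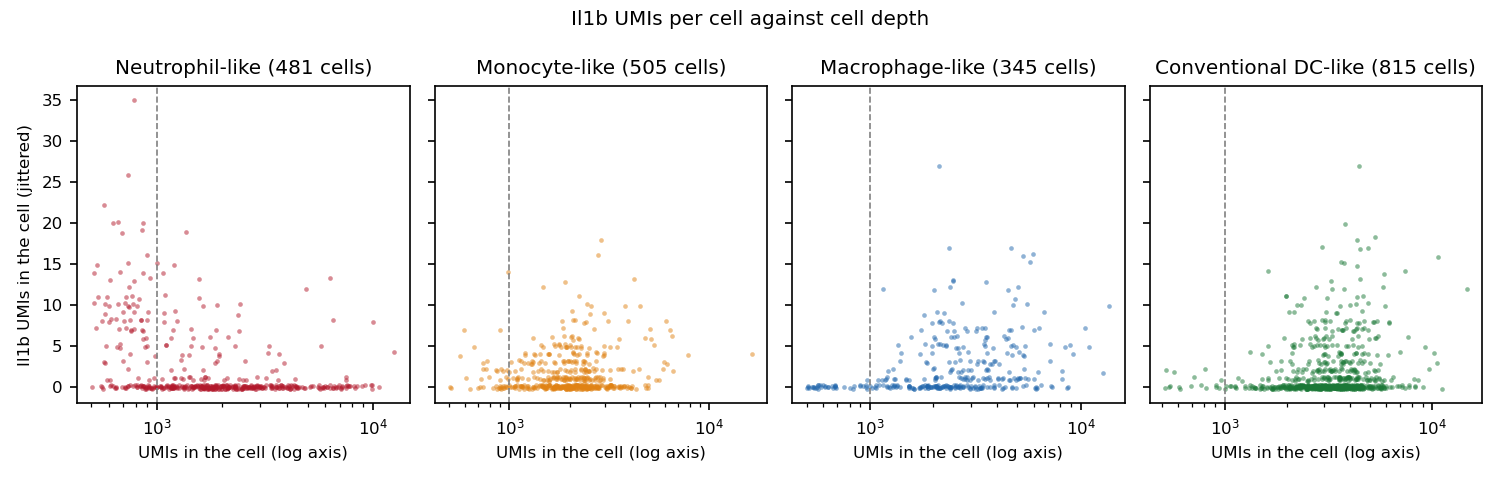
Il1b UMIs in each cell (vertical axis, slightly jittered) against all UMIs of that cell (horizontal log axis) for the 4 myeloid classes. Each point is a cell and the dashed line marks 1000 UMIs. In neutrophil-like cells the highest counts, up to 35, lie left of the line, where 119 cells hold 713 of 1079 UMIs, and in macrophage-like and dendritic cell-like cells the high counts lie right of it.

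Neutrophil-like cells were then clustered on their own, again without the 8 genes, and 4 sub-clusters were found. A dividing sub-cluster (59 cells, median 5689 UMIs) and a granule-rich one (177 cells, 1994 UMIs) had high levels of Camp and Ngp, the genes of secondary granule proteins. A Retnlg-rich sub-cluster (108 cells, 1625 UMIs) was led by Retnlg and Mmp8, and a Cxcl2-rich one (137 cells, 935 UMIs) had the most Cxcl2, the gene of a neutrophil-attracting chemokine. Cxcl2 stood at 0, 5.21, 468 and 1544 CPM and Camp at 55211 and 36840 in the first pair against 9696 and 13399 in the second, and Cxcr2, a receptor of mature neutrophils, peaked at 468 CPM in Retnlg-rich cells. The cells were not ordered in time, and the sub-clusters are named by these genes only.

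Of the 8 genes, 7 had their highest level in the Cxcl2-rich cells. Il1b went from 12.9 CPM in dividing cells (4 UMIs) and 23.5 in granule-rich cells (9 UMIs) to 353 in Retnlg-rich (65 UMIs) and 3854 in Cxcl2-rich cells (1001 UMIs, 3619 to 4100). Il1b UMIs were found in 114 of the 137 Cxcl2-rich cells, at 7.31 per cell, and the sub-cluster held all but 78 of the 1079 UMIs of the class. Acod1 was absent from dividing and granule-rich cells, and stood at 10.9 CPM in Retnlg-rich (2 UMIs) and 131 in Cxcl2-rich cells (34 UMIs). Il1f9 was the exception. It peaked in Retnlg-rich cells at 370 CPM (287 to 469, 68 UMIs), above 193 in Cxcl2-rich (143 to 254, 50 UMIs) and 80.8 in granule-rich cells (31 UMIs).

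**Figure D4:**
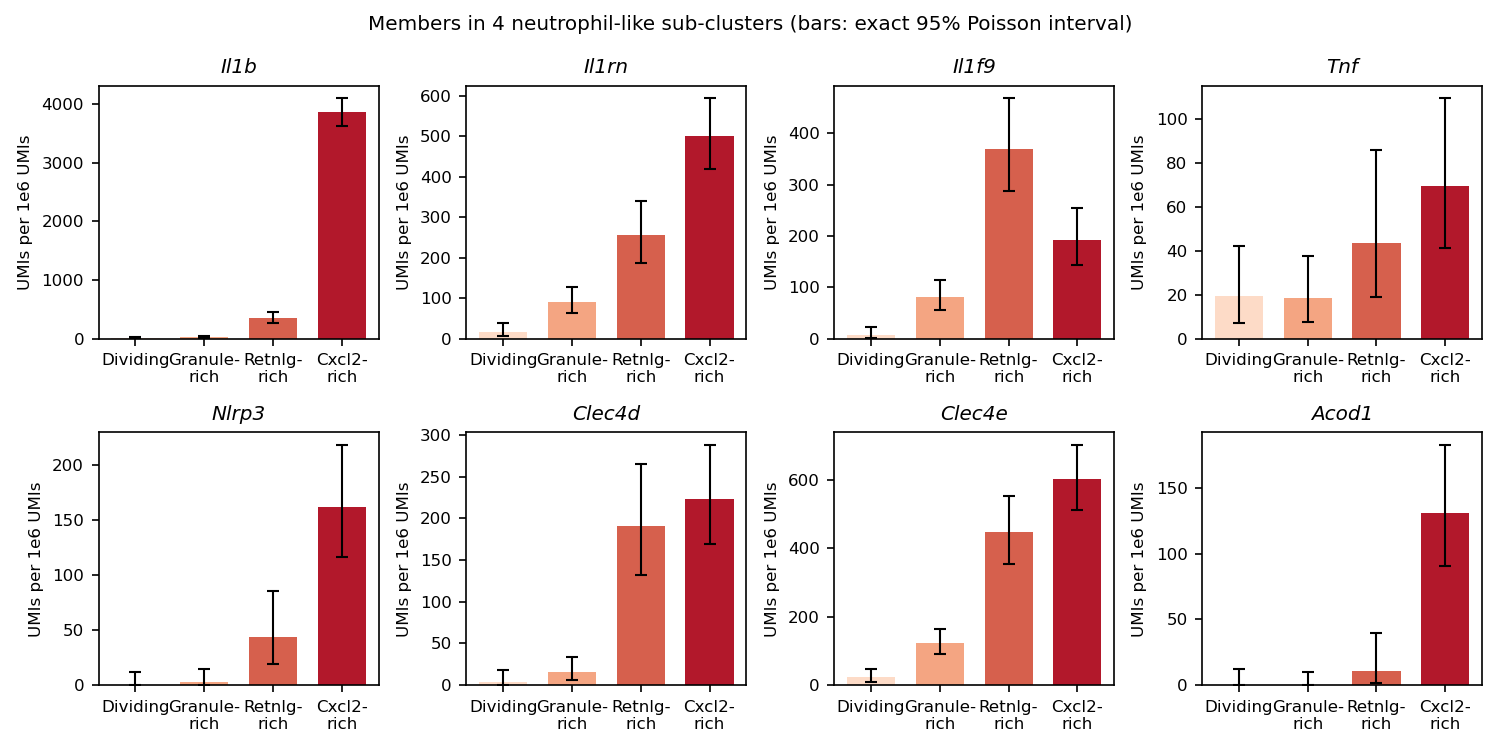
Level of each gene (vertical axis, UMIs per 1e6 UMIs, a separate linear scale for each gene) in the 4 sub-clusters of neutrophil-like cells, with exact 95% Poisson intervals. Il1b and Acod1 are far highest in Cxcl2-rich cells (3854 and 131 CPM), Clec4d and Clec4e are already high in Retnlg-rich cells (190 and 446 CPM), and Il1f9 peaks there.

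Between Cxcl2-rich and granule-rich cells all 8 genes were at least 2-fold higher in the former, where 31.4% of 3593 genes were (median log2 ratio 3.15 against 0.41 over all genes). The ratio was 164 for Il1b (86.2 to 360), 62.0 for Nlrp3 (10.5 to 2508, on 42 against 1 UMI), 14.3 for Clec4d (6.18 to 40.5), 5.49 for Il1rn (3.75 to 8.21), 4.90 for Clec4e (3.52 to 6.95), 3.80 for Tnf (1.51 to 10.8) and 2.38 for Il1f9 (1.49 to 3.86). Acod1 was 16.7-fold higher when its 0 UMIs in granule-rich cells were set to 3, which is not a lower limit. The counts behind Nlrp3, Tnf and Acod1 are small, and their intervals are wide.

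Between Cxcl2-rich and Retnlg-rich cells only 3 of 8 genes were higher, Il1b (10.9-fold, 8.48 to 14.2), Acod1 (12.0-fold on 34 against 2 UMIs) and Nlrp3 (3.72-fold), where 33.9% of 2800 genes were, so that the count is near the background, and none was higher in Retnlg-rich cells (all genes, 7.07%). Clec4d, at 223 against 190 CPM, differed by less than counting error (log2 0.23, -0.40 to 0.88). From granule-rich to Retnlg-rich cells, all 6 genes with enough UMIs were higher, where 10.3% of 2780 genes were. Their ratios ran from 15.1 for Il1b and 12.2 for Clec4d through 4.58 for Il1f9, 3.64 for Clec4e and 2.80 for Il1rn to 2.38 for Tnf, whose interval included no difference. Clec4d, Clec4e and Il1f9 were thus high in a sub-cluster where Il1b was at 353 CPM.

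Against macrophage-like cells led by C1q genes, Cxcl2-rich cells were higher for 7 of 8 genes, where 10.4% of all genes were. Il1b was 4.35-fold higher (3.95 to 4.80), Nlrp3 4.38-fold and Clec4e 8.58-fold. Tnf alone was not higher, at 69.3 against 107 CPM, which did not exceed counting error. The class means of neutrophil-like cells therefore combine cells with more and cells with far less Il1b than macrophage-like cells.

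Several measures moved with the Cxcl2-rich cells. They were the shallowest, and S100a8 and S100a9 took 22.4% of their UMIs against 40.5 to 43.8% in the other 3 sub-clusters. Genes that tissue dissociation is known to induce (16 immediate early and heat shock genes, including Fos, Jun and Egr1) summed to 8767 CPM there, against 4416 in Retnlg-rich, 1765 in granule-rich and 791 in dividing cells, and 14 of 14 with enough UMIs were higher than in granule-rich cells. Over whole classes this list summed to 13836 CPM in macrophage-like, 7935 in monocyte-like, 5727 in dendritic cell-like and 3527 in neutrophil-like cells. The neutrophil-like sum is lowered by the S100a8 and S100a9 share of that class. The part of dissociation in the levels was not tested.

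Transcripts typical of other cells were also counted in that sub-cluster, and whether they came from mixed droplets or from the cells themselves was not tested. Its leading genes included Apoe, Cd74, H2-Aa and H2-Eb1, which neutrophils are not known for. Macrophage markers summed to 1860 CPM, against 152 to 239 in the other 3 sub-clusters, with 3 of 15 at 0. Of the 137 cells, 27 held 3 or more UMIs of 4 MHC class II genes, with a median depth of 3667 UMIs, and their Il1b level was 1033 CPM (867 to 1222). In the remaining 110 cells it was 6752 CPM (6310 to 7218), Acod1 was 234, Clec4e 999, Nlrp3 297 and Il1f9 328. Macrophage markers still summed to 1319 CPM in these 110 cells, against 2386 in the 27, so the split did not remove them. Without the 27 cells, the 7 genes with enough UMIs were still higher than in granule-rich cells, where 29.0% of genes were. Tnf could no longer be called, since the pair then held fewer than 15 UMIs. Of its 18 UMIs, 11 lay in the 27 cells (83.6 CPM) and 7 in the rest (54.6 CPM), beside 7 UMIs in granule-rich cells (18.2 CPM). In a finer clustering, the shallowest sub-cluster (95 cells, median 811 UMIs) had 8988 CPM of Il1b and was highest for 7 of the 8 genes. There the exception was Tnf and not Il1f9.

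Genes of the surrounding pathways were read against the 31.4% of all genes that were higher in Cxcl2-rich than granule-rich cells and the 10.2% that were lower. Of 15 other TNF and NF-kB response genes with enough UMIs, 14 were at least 2-fold higher, among them Nfkbia, which encodes an NF-kB inhibitor (554 against 80.8 CPM), and Tnfaip3, which encodes the inhibitor A20 (100 against 7.82). The median log2 ratio of that list was 1.88, against 0.41 over all genes. Of 9 feedback and anti-inflammatory genes 7 were higher, including Zfp36, which encodes an mRNA decay factor that acts on cytokine transcripts (1178 against 216 CPM, and also on the dissociation list). Of 7 other inflammasome genes 2 were, Txnip and Mefv, a share near that of all genes, and the adaptor gene Pycard stood at 139 against 83.4 CPM. None of 5 genes of the interleukin-1 receptor pathway was higher, and 9 of 10 granule genes were lower. Ltf was among the lower ones (2660 against 12606 CPM), but the granule-rich sub-cluster had been picked by its Ltf level. The granule list is therefore not a separate result.

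Between classes, 42.5% of all genes were at least 2-fold lower and 11.4% higher in neutrophil-like than monocyte-like cells. Of 18 other TNF and NF-kB genes, 13 were lower and 1 was higher, and the median log2 ratio was -1.50, against -0.76 over all genes. Of 12 other inflammasome genes, 6 were lower and none higher, with a median of -1.02. A few genes were at least 2-fold higher in neutrophil-like cells than in each of the other 3 myeloid classes. These were Il1r2, which encodes the decoy receptor of interleukin-1 (165 CPM, and 7.87 to 14.9 in those), Il18rap, an accessory chain of the interleukin-18 receptor (57.2, and 1.06 to 3.94), Trem1, an amplifying receptor of myeloid cells (175, and 2.95 to 12.7), Lbp, which encodes the lipopolysaccharide-binding protein (80.9, and 0.354 to 2.71), Tirap, a Toll-like receptor adaptor (34.3, and 5.31 to 11.7), and Clec5a, a lectin receptor coupled to the adaptor DAP12 (92.3, and 9.57 to 28.5). Macrophage-like cells were highest for Il1a, the other interleukin-1 agonist (38.4 CPM), for Il18 (84.6) and for Il18bp, the gene of its soluble inhibitor (132). Il1f5, Il1f6, Il1f8, Il1f10 and Il33 had no UMI in the 4 classes.

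Macrophage-like cells were made of 2 clusters, a larger one led by Ccl12, Pf4 and complement C1q genes (269 cells) and a smaller one with iron-handling genes such as Slc40a1 (76 cells). Il1rn separated them, at 244 CPM (192 UMIs) against 30.5 (7 UMIs), a ratio of 8.02 (3.82 to 20.2). It was the only 1 of 6 genes with enough UMIs above 2-fold, where 9.57% of 6425 genes were. Il1b, at 885 against 570 CPM, differed 1.55-fold, beyond counting error, and Tnf, at 107 against 60.9, did not. Il18, at 50.9 against 200 CPM, and the inhibitor gene Il18bp, at 106 against 222, ran the opposite way. At finer resolution the Cxcl9-rich macrophage-like cells (177 cells) had the highest Il1rn and Tnf of any macrophage-like cluster described here, at 305 and 127 CPM. Both were at least 2-fold above the iron-handling cluster, as 9.68% of genes were.

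Dendritic cell-like cells had 3 clusters, which differed less in Il1b than the neutrophil sub-clusters did. Il1b stood at 553 CPM in Cd209a-rich cells (545 cells, 1036 UMIs), 361 in Ccr7-rich cells (120 cells) and 324 in Cd209e-rich cells (150 cells). Tnf was 6.39-fold higher in Ccr7-rich than Cd209a-rich cells (34.1 against 5.34 CPM, on 12 and 10 UMIs). It was the only 1 of the 8 genes called higher in Ccr7-rich cells, where 11.7% of all genes were, and Nlrp3 and Clec4e were called higher in Cd209a-rich cells (all genes, 25.1%) with intervals that included no difference. Against Cd209e-rich cells, Cd209a-rich cells were higher for Il1rn and, with an interval that included no difference, Clec4e (all genes, 10.2%), and none of the 8 was higher in Cd209e-rich cells (all genes, 6.08%). Il1rn had no UMI in Cd209e-rich cells. The Cd209e-rich cells may not be conventional dendritic cells. In the finer clustering, a cluster of 223 cells led by Cd209e and Cd209d, with Siglech also leading, was named plasmacytoid dendritic cell-like. How many of the 150 Cd209e-rich cells it holds was not counted. Under the stricter filter 160 dendritic cell-like cells were also classed as plasmacytoid dendritic cell-like, so the placing of this class is not firm.

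Monocyte-like cells were 1 cluster, which the finer clustering divided. Il1b stood at 1020 CPM in cells led by the patrolling-monocyte gene Ace (124 cells, 198 UMIs) and 663 in cells with F13a1 (355 cells, 563 UMIs). The ratio was 1.54 (1.30 to 1.81). Il1b UMIs per cell were similar (1.60 and 1.59), and the Ace-led cells were shallower (median 1414 against 2164 UMIs). The part of depth in this ratio was not tested. Ace and Treml4 were also raised markers of the F13a1 cells, so the 2 groups are not cleanly apart. No gene reached 2-fold with enough UMIs in the direction of Ace (all genes, 13.2%), and in the direction of F13a1 (all genes, 9.8%) only Clec4d did, on 21 against 2 UMIs, with an interval that included no difference. Clec4e, at 149 and 104 CPM, did not differ beyond counting error.

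Detection of 1 gene went with detection of others in the same neutrophil-like cells. After thinning, 25 of 55 cells with Il1b also had Clec4e (45.5%, 32.0 to 59.4%), against 46 of 307 without Il1b (11.2 to 19.5%). Il1rn was found in 30.9% of cells with Il1b and 12.4% without, and Nlrp3 in 7 of 55 and 3 of 307. In macrophage-like cells Il1rn was found in 22.9% of 109 cells with Il1b and 9.60% of 198 without. Monocyte-like cells showed no such pairing of Il1b with Clec4e (9.09% and 10.6%). At least 2 of the 8 genes were detected in 76 of 362 neutrophil-like cells and in 15.3% of macrophage-like, 7.54% of monocyte-like and 2.63% of dendritic cell-like cells. Cells of 1 class share a library and differ in kind, so these shares describe the library and carry no test.

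Over the 13 clusters of at least 50 cells, the genes with the most similar pattern were named by the Pearson correlation of log2(CPM + 10) among 6831 genes. The points share 1 library and differ in depth and in their neutrophil content. Clec4d and Clec4e were among each other's 3 nearest genes (r = 0.953). Il1f9 was nearest to Cxcr2 (0.989), Trem1 (0.977) and Il1r2 (0.973), Il1rn to Oasl1 (0.932), Ifit3 (0.930) and Cxcl2 (0.917), and Nlrp3 to Cd300ld (0.954), Sirpb1b (0.912) and Rnf149 (0.911). Il1b was nearest to Rnf13 (0.907), Atp6v1g1 (0.895) and Gm34084 (0.884), and Tnf to Atp6v0c (0.927), Casp4 (0.872) and Amdhd2 (0.857). Clec4e was nearest to Slc16a3 (0.965), Cd300lb (0.956) and Clec4d, and Clec4d, after Clec4e, to Cd300lf (0.945) and Cd300ld (0.937). Among the 8 genes the lowest correlation was that of Il1f9 with Tnf (0.345), and Il1b with Il1f9 stood at 0.439. For Acod1, with under 100 UMIs, no similar genes are named.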

How the data were processed

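Single-cell RNA-seq was made from sorted CD64+ thymus cells. Raw counts of UMIs, as the authors deposited them for every gene and barcode, were made with Cell Ranger 6.0.0 (2021 library) and 8.0.0 (2024 library), per the file headers, on mm10, per the submitters' processing notes. The 2024 library (2815 barcodes, 33696 rows, median 5312 UMIs) gives depth only, since its rows carry no names here, and barcodes shared between the libraries were not counted.

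Barcodes with at least 500 UMIs, 300 genes and at most 10% mitochondrial UMIs were kept (3188 of 3214), and 3 called doublets (0.0941%) were removed. Cells were clustered in scanpy 1.11.5 (2000 variable genes, 30 components, 15 neighbours, Leiden resolution 0.5) without the 8 genes. A cluster was named from 3 or more raised markers when no rival class led its top genes, so the names were made anew and may not match the study's own. Positions are from GENCODE vM21 and promoters from RefSeq, both on the files' build, and all 8 genes matched. Of 11 C-type lectin and adaptor genes listed, 1 (Clec7a) was not matched and is not analysed here.

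Counts were summed per class with exact Poisson intervals, and ratios have conditional binomial intervals. A class with 0 UMIs was set to 3 counts in a ratio. The ratio script was tested on simulated data. All 8 genes are named. A list gene is named if it is among the 3 highest of its list in any myeloid class or 2-fold apart between neutrophil-like and each other class, and Mefv, the marker and leading genes of clusters and Il1f5, Il1f6, Il1f8, Il1f10 and Il33 were named after their values were seen. For each gene with 100 or more UMIs the 3 most similar genes are named. The genes and lists were chosen with earlier results of these data known.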

Additional observations from a re-analysis of the deposited data

Results flagged for a closer look

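Outside the 4 myeloid classes, 2 of the genes were higher in 11 basophil-like cells than in any of those classes. Nlrp3 stood at 618 CPM (7 UMIs in 4 cells) and Tnf at 353 CPM (4 UMIs in 2 cells). The cluster had 29 Mcpt8 UMIs in 5 cells, 11 Il4 UMIs and 15 Il13 UMIs, and no UMI of the other 6 genes, Il1b included. Siglecf, Prg2 and Epx had no UMI. The counts are few, the cells were not part of any comparison above, and no replicate exists.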

How the results depend on the processing

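Of 126 recomputed main values under the alternatives, 98 stayed within the limit set for them and 28 moved, and of 264 single ratios 191 stayed and 73 moved. No ratio of at least 2-fold changed sign, but smaller ones did, such as Il1b in neutrophil-like over dendritic cell-like cells (-1.28 on the log2 scale under the stricter filter). The Il1b level in CPM moved to 199, 631 and 911 (neutrophil-like, monocyte-like, macrophage-like) under the stricter filter, 877 (macrophage-like) and 564 (dendritic cell-like) at resolution 1.0, 660 (neutrophil-like) with classes from marker UMIs, 689 (monocyte-like) with the 8 genes allowed in clustering, 869 (neutrophil-like) and 697 (monocyte-like) with the 6% highest doublet scores removed, 1504, 633, 652 and 448 under median-of-ratios scaling, and 1517 (neutrophil-like) with S100a8 and S100a9 left out. Of the 8 genes, those at least 2-fold higher in neutrophil-like cells numbered 3 against monocyte-like and 2 against macrophage-like cells under the stricter filter. The share of all genes was not computed under that filter, so these counts cannot be read against a background. Shares with an Il1b UMI moved to 24.9, 27.7, 23.2 and 16.8% at 500 UMIs, 10.7, 45.5, 53.9 and 31.6% at 2000, and 31.0, 49.1, 51.6 and 37.4% unthinned. Removal of cells by the stricter filter, and the monocyte-like cells re-classed under it, are counted above. How far each of these moved the levels was not tested. For the other moves the cause was not tested. The alternatives on S100a8 and S100a9 and on MHC class II cells were chosen after seeing the data. No paired analysis was possible because the labels give 1 group and only 1 library has gene names, and no replicate could be left out. Counts under about 15 UMIs limit Acod1 outside neutrophil-like cells and Tnf in small clusters.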
